A study of Mus musculus with 12 samples.

Results

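The mouse genes of cholesterol synthesis and of its control by sterol regulatory element-binding proteins (SREBPs) were followed across 12 RNA-seq libraries of macrophages. The set holds 28 genes, matched by symbol through their Ensembl IDs, of 55401 rows in the deposited table. All 28 were present. All 28 also reached 10 normalized counts in 3 or more libraries, the minimum for testing, as did 13369 genes in all. Of the 28 genes, 8 encode enzymes that lead from acetyl-CoA to the isoprenoid diphosphates, 12 encode enzymes that lead from squalene to cholesterol, and 8 encode the SREBP factors and the proteins that control them, with 1 sterol carrier.

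The libraries came from bone-marrow-derived macrophages (BMDMs) of Irx3-/- mice of the C57BL/6J strain, differentiated with 20 nM M-CSF for 7 days. Adeno-associated virus (AAV) delivered 1 of 4 constructs: IRX3_S389A or IRX3_S361A, which carry alanine in place of the serine that the name gives, wild-type IRX3 (IRX3_WT), or GFP as the control. IRX3 is a transcription factor with a homeodomain, one of the Iroquois proteins. Cells were then stimulated for 4 h with LPS at 100 ng/ml, a lipid of the bacterial outer membrane that macrophages sense through Toll-like receptor 4. All 4 groups share the loss of the endogenous gene, the viral infection and the stimulus, so no comparison here is with resting macrophages or with cells that kept their own Irx3. There were 3 libraries per construct. The labels give neither the age of the mice, nor the promoter of the vectors, nor whether the 3 libraries of a group came from separate animals or cultures, so the p-values measure the spread between these libraries.

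Cells make cholesterol in the endoplasmic reticulum from acetyl-CoA, by way of mevalonate, isoprenoid diphosphates, squalene and lanosterol. When sterols in that membrane are scarce, the escort protein SCAP carries SREBP precursors to the Golgi, where the site-1 and site-2 proteases release the part that enters the nucleus and switches on nearly every enzyme gene of the route. When sterols are plentiful, INSIG proteins hold SCAP and SREBP back, and oxysterols, which also activate the liver X receptors (LXRs), strengthen that hold. In macrophages the route is known to be tuned during the response to LPS and interferon.

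Recovered reads per library ran from 17149058 to 20108002. No GFP library had a read of Irx3, and its mean was 187 ± 20.2 normalized counts in the IRX3_S389A libraries, 349 ± 21.5 in the IRX3_S361A libraries and 177 ± 16.3 in the IRX3_WT libraries (SD, n = 3 each). The level of the S361A transcript was thus about that of the other constructs doubled, so for IRX3_S361A the amino acid change cannot be told apart from the higher transcript level. All 10 macrophage markers were expressed, with summed levels of 428329 to 441617 normalized counts in the IRX3_S389A libraries, 451437 to 468336 in the IRX3_S361A libraries, 428063 to 430331 in the IRX3_WT libraries and 395086 to 405069 in the GFP libraries. The 8 neutrophil markers summed to at most 63.3 normalized counts in any library, with Ly6g, Elane and Mpo at 0, the 6 dendritic cell markers to at most 186 and the 6 stromal markers to at most 70.6. The 6 lymphocyte and 5 erythroid markers summed to at most 10.2 and 6.03 normalized counts. In bulk RNA, fewer cells that express a gene and less RNA per cell cannot be told apart.

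Promoters are shown for 5 members whose levels are described next, since SREBP is known to act through sterol regulatory elements near the start of these genes, beside the factors NF-Y and Sp1. The windows are RefSeq sequence of GRCm38.p6, 250 bases before to 50 after the start, written 5′ to 3′ on the strand of the gene. Capitals mark matches to TCACNCCAC, a form of the sterol regulatory element, to its shorter core CACNCCAC, or to CCAAT, the box that NF-Y binds, on either strand, so CCAAT also appears as ATTGG. Hmgcs1 lies at chr13:119690101-119690400 on the plus strand, Idi1 at chr13:8885356-8885655 on the plus strand, Cyp51 at chr5:4104648-4104947 on the minus strand, Msmo1 at chr8:64733529-64733828 on the minus strand and Insig1 at chr5:28071162-28071461 on the plus strand.
Hmgcs1: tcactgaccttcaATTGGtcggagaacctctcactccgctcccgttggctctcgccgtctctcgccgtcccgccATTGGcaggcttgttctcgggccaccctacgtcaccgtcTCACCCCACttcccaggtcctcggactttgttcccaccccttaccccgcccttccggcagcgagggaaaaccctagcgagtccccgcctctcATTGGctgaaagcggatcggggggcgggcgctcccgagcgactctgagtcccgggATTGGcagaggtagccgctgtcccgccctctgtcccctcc
Idi1: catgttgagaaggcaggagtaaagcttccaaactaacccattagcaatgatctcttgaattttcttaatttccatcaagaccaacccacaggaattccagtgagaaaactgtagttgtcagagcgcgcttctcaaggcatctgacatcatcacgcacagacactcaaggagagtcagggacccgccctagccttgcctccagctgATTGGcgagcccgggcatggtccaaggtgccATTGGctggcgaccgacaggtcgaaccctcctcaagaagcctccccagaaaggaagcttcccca
Cyp51: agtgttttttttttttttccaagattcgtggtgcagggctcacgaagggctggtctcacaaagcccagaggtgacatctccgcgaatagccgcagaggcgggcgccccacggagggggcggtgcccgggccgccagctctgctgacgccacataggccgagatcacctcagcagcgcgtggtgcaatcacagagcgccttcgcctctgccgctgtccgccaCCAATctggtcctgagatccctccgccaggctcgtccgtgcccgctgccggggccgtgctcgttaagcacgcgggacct
Msmo1: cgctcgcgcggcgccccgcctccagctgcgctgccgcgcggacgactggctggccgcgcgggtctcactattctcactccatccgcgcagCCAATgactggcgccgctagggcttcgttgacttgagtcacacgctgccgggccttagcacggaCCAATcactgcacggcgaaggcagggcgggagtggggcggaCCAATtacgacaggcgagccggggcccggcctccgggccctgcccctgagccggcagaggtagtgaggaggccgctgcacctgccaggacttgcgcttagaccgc
Insig1: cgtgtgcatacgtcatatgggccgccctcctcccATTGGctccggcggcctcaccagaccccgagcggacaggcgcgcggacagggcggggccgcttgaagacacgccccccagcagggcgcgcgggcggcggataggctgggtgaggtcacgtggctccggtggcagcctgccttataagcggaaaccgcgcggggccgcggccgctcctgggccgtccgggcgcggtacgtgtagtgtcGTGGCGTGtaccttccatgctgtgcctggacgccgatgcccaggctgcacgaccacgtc
RefSeq windows were matched for 24 of the 28 members, 32 windows in all. The CCAAT box was found in 21 of the 32 windows and in at least 1 window of 20 of the 24 genes, and 37.4% of all 32851 promoter windows held it. TCACNCCAC was found for Hmgcs1 alone, 137 bases before the start, against 1.24% of all windows. Its core CACNCCAC, which that match contains, was found for Acat2, Hmgcs1 and Insig1, against 6.24% of all windows. In the Insig1 window the core lies on the minus strand, 9 bases before the start, and an E-box, CACGTG, begins 101 bases before the start; 7.15% of all windows hold that E-box. A match here is a run of letters and no measurement of binding. Other forms of the sterol regulatory element were not searched for, so a window without a match may still hold one.

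Among the 4 groups, 19 of the 28 genes differed in limma's test of any difference (Benjamini-Hochberg adjusted p under 0.05), where 44.2% of all genes tested did. By segment, these were 4 of the 8 genes from acetyl-CoA to the isoprenoids, 11 of the 12 from squalene to cholesterol and 4 of the 8 genes of SREBP control. The IRX3_WT group had the lowest of the 4 group means for 19 of the 28 genes and for 11 of the 12 late enzymes. The IRX3_S389A group had the highest mean for 10 genes and the GFP group for another 10. These orders of group means were not counted over all genes tested. The median of the 20 enzymes was also taken in each library, as a log2 difference from the mean of the GFP libraries. This median was 0.0038 to 0.084 in IRX3_S389A, -0.088 to -0.058 in IRX3_S361A, -0.40 to -0.23 in IRX3_WT and -0.038 to 0.0070 in GFP, so the IRX3_WT libraries lay apart below the rest.

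**Figure D1:**
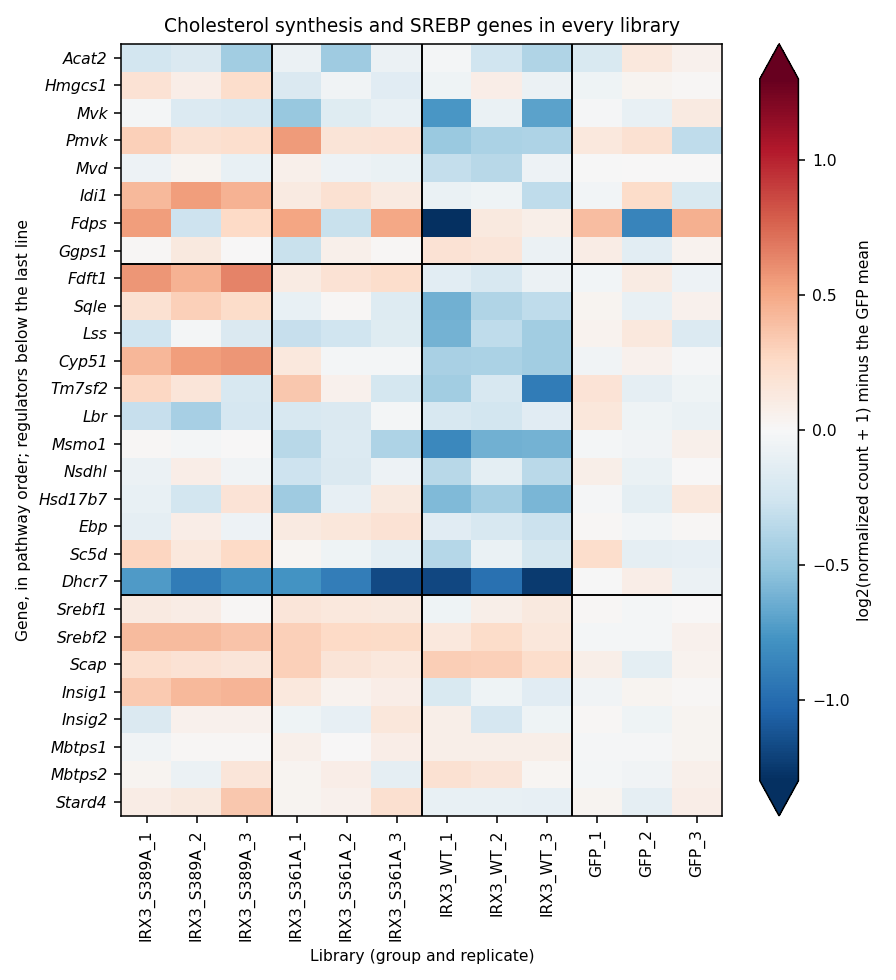
Each cell is 1 gene in 1 library, coloured by log2(normalized count + 1) minus the mean of the 3 GFP libraries, with genes in the order of the pathway and libraries grouped by construct. The 3 IRX3_WT columns are blue over most of the 12 enzymes from squalene to cholesterol, Dhcr7 is blue in all 9 libraries with an IRX3 construct, and Cyp51, Fdft1 and Idi1 are red in the 3 IRX3_S389A columns.

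The first segment makes the isoprenoid building blocks. Idi1 (chr13:8885501-8892451, plus strand) encodes isopentenyl diphosphate isomerase, which supplies the allylic unit for chain building. It had 264, 288 and 270.3 normalized counts in the IRX3_S389A libraries, 214, 227 and 214 in the IRX3_S361A libraries, 185, 190.0 and 157 in the IRX3_WT libraries and 192, 232 and 172 in the GFP libraries. Every IRX3_S389A library was above every other library, and the IRX3_WT and GFP ranges overlapped. Idi1 rose in IRX3_S389A against IRX3_WT by 0.63 ± 0.11 (log2 difference ± SE, adjusted p = 7.7e-05, limma) and against GFP by 0.47 ± 0.11 (adjusted p = 0.00084). The difference between IRX3_S389A and IRX3_S361A was 0.33 ± 0.11 and missed the threshold by limma (adjusted p = 0.0545), while edgeR called it (adjusted p = 0.0483). That between IRX3_S361A and IRX3_WT, 0.30 ± 0.11, also missed it by limma (adjusted p = 0.0627) and passed with equal library totals (adjusted p = 0.0182).

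Pmvk, phosphomevalonate kinase, had 148, 137 and 138 normalized counts in the IRX3_S389A libraries, 175, 134 and 135 in the IRX3_S361A libraries, 84.7, 89.3 and 89.9 in the IRX3_WT libraries and 131, 136 and 94.4 in the GFP libraries. All 3 IRX3_WT libraries were below all libraries of the other groups. It rose in IRX3_S361A by 0.73 ± 0.15 (adjusted p = 0.000325, limma) and in IRX3_S389A by 0.67 ± 0.15 (adjusted p = 0.000989), each against IRX3_WT. It fell in IRX3_WT against GFP by 0.43 ± 0.15 (adjusted p = 0.0169, limma), a call that held in 9 of the 12 fits that left out 1 library and was lost without IRX3_WT replicate 1, GFP replicate 1 or GFP replicate 2 (highest adjusted p = 0.113). Mvk, mevalonate kinase, averaged 99.3 ± 27.4 normalized counts in IRX3_WT and 139 ± 10.5 in GFP libraries (SD, n = 3 each) and fell by 0.51 ± 0.16 (adjusted p = 0.00753, limma). That fall was lost without IRX3_WT replicate 1 (adjusted p = 0.0687, limma) and without IRX3_WT replicate 3, and 1 IRX3_WT library, at 131, lay within the GFP range of 129.8 to 150.5.

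Hmgcs1, the synthase that makes hydroxymethylglutaryl-CoA and whose promoter holds the full TCACNCCAC match, kept a narrow range. Its values were 671, 624 and 689 normalized counts in the IRX3_S389A libraries, 515, 569.5 and 529 in the IRX3_S361A libraries, 567, 624 and 555 in the IRX3_WT libraries and 565, 602 and 596 in the GFP libraries. Only the comparison of IRX3_S389A with IRX3_S361A passed, at 0.30 ± 0.07 (adjusted p = 0.00308, limma). In IRX3_WT against GFP the difference was -0.02 ± 0.07, and with equal library totals it was -0.19 (adjusted p = 0.0203, limma). Acat2, the cytosolic thiolase of the opening step, Mvd, the decarboxylase that ends the mevalonate part, Fdps, which builds farnesyl diphosphate, and Ggps1, which builds geranylgeranyl diphosphate, passed no comparison on the deposited scaling. With equal totals Acat2 was called lower against GFP in IRX3_S389A (adjusted p = 0.0125, limma) and IRX3_WT (adjusted p = 0.0274), and Mvd in IRX3_WT (adjusted p = 0.00228). Their log2 differences in IRX3_WT against GFP as deposited ran between -0.44 for Fdps and 0.09 for Ggps1. Fdps was close to the counting floor of 2.67 to 3.41 normalized counts, with 1.97 to 11.4 per library, and 91.4% of its coding transcript has a near-identical copy in other annotated genes, so its level is uncertain. The same doubt holds for 65.6% of the Acat2, 33.3% of the Idi1 and 27.3% of the Ggps1 transcript. These shares take in genes that overlap at the same place, Gm43738 for Fdps, Gm48574 for Idi1 and Arid4b for Ggps1. Of the near-copies of Idi1, Gm13502 had 1.03 to 7.05 normalized counts.

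The second segment opens with squalene. Fdft1 (chr14:63145150-63179578, minus strand) encodes squalene synthase, which commits farnesyl diphosphate to sterols. It had 263, 244 and 277 normalized counts in the IRX3_S389A libraries, 191, 202 and 208 in the IRX3_S361A libraries, 161, 154 and 168 in the IRX3_WT libraries and 173, 191 and 169 in the GFP libraries. The IRX3_S389A libraries were above all others, and the IRX3_WT libraries below all others, though 168.4 in IRX3_WT lay just under 169.2 in GFP. The log2 difference of -0.14 between IRX3_WT and GFP missed the threshold by limma, and with equal library totals all 12 late enzymes were called lower. Fdft1 rose in IRX3_S389A by 0.69 ± 0.11 against IRX3_WT (adjusted p = 8.64e-06, limma), by 0.56 ± 0.11 against GFP (adjusted p = 6.02e-05) and by 0.38 ± 0.11 against IRX3_S361A (adjusted p = 0.0154). The last of these was lost without IRX3_S389A replicate 3 (adjusted p = 0.087, limma) and without IRX3_S361A replicate 1. In IRX3_S361A against IRX3_WT the rise was 0.31 ± 0.11 (adjusted p = 0.0412, limma). That call held in 7 of the 12 fits that left out 1 library, was lost without any 1 of the 3 IRX3_S361A libraries or without IRX3_WT replicate 1 or 2 (highest adjusted p = 0.13), and was not made by DESeq2 (adjusted p = 0.0705). Stretches of other annotated transcripts, from Ctsb and the pseudogene Gm6781, match 54.7% of the Fdft1 coding transcript. Ctsb is an overlapping gene at the same place. On the opposite strand, Ctsb covers 18.3% of the Fdft1 exon bases, and the strand setting of the counting is not given in the sources used here. Ctsb averaged 134421 ± 1198 normalized counts in the IRX3_S389A libraries, 127778 ± 1870 in the IRX3_S361A libraries, 119738 ± 1641 in the IRX3_WT libraries and 120256 ± 1084 in the GFP libraries (SD, n = 3 each). Its part in the Fdft1 values was not tested.

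Sqle (chr15:59315077-59331192, plus strand) encodes squalene monooxygenase, a rate-limiting enzyme of the late route. Its values were 540.3, 586 and 556 normalized counts in the IRX3_S389A libraries, 440.3, 476 and 419 in the IRX3_S361A libraries, 305, 360.3 and 374 in the IRX3_WT libraries and 484, 442 and 491 in the GFP libraries. The 3 IRX3_WT libraries were the lowest and the 3 IRX3_S389A libraries the highest, with IRX3_S361A and GFP overlapping between them. Sqle fell in IRX3_WT against GFP by 0.45 ± 0.08 (adjusted p = 2.3e-05, limma). It rose against IRX3_WT in IRX3_S361A by 0.36 ± 0.08 (adjusted p = 0.00136, limma) and in IRX3_S389A by 0.70 ± 0.08 (adjusted p = 5.74e-08). IRX3_S389A was above IRX3_S361A by 0.33 ± 0.08 (adjusted p = 0.00491, limma) and above GFP by 0.25 ± 0.08 (adjusted p = 0.0163). With libraries scaled to equal totals, the difference from GFP was 0.08 (adjusted p = 0.445, limma), and that call was also lost without IRX3_S389A replicate 2 or GFP replicate 2 (adjusted p = 0.0981).

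Cyp51 (chr5:4081145-4104746, minus strand), the demethylase that acts on lanosterol, had the smallest p of the 28 genes in the test among the 4 groups. It had 482, 523 and 535 normalized counts in the IRX3_S389A libraries, 393, 353 and 351 in the IRX3_S361A libraries, 268, 269 and 261 in the IRX3_WT libraries and 346, 373 and 355 in the GFP libraries. The groups fell into 3 levels, IRX3_S389A above IRX3_S361A and GFP, which overlapped, and IRX3_WT below them. Cyp51 fell in IRX3_WT against GFP by 0.43 ± 0.08 (adjusted p = 5.13e-05, limma). Against IRX3_WT it rose in IRX3_S361A by 0.46 ± 0.08 (adjusted p = 8.41e-05, limma) and in IRX3_S389A by 0.95 ± 0.08 (adjusted p = 7.02e-11). It was also higher in IRX3_S389A than in GFP, by 0.52 ± 0.08 (adjusted p = 2.7e-06, limma), and than in IRX3_S361A, by 0.49 ± 0.08 (adjusted p = 4.67e-05). All 5 of these calls held in each of the 12 fits that left out 1 library.

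Msmo1 (chr8:64718139-64733792, minus strand), the oxidase that begins removal of the methyl groups at carbon 4 of the sterol ring, had 529.9, 514 and 527 normalized counts in the IRX3_S389A libraries, 408, 464 and 396 in the IRX3_S361A libraries, 293, 341 and 343 in the IRX3_WT libraries and 517, 509 and 549 in the GFP libraries. The IRX3_S389A and GFP ranges overlapped, with a log2 difference of -0.00 ± 0.08, while the IRX3_S361A libraries lay below both and the IRX3_WT libraries lowest. Msmo1 fell against GFP by 0.69 ± 0.08 in IRX3_WT (adjusted p = 4.09e-09, limma) and by 0.32 ± 0.08 in IRX3_S361A (adjusted p = 0.00257). Against IRX3_WT it rose by 0.38 ± 0.08 in IRX3_S361A (adjusted p = 0.00076, limma) and by 0.69 ± 0.08 in IRX3_S389A (adjusted p = 5.1e-08). Between the mutants it was higher in IRX3_S389A by 0.31 ± 0.08 (adjusted p = 0.00763, limma), lost without IRX3_S361A replicate 3 (adjusted p = 0.0672).

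**Figure D2:**
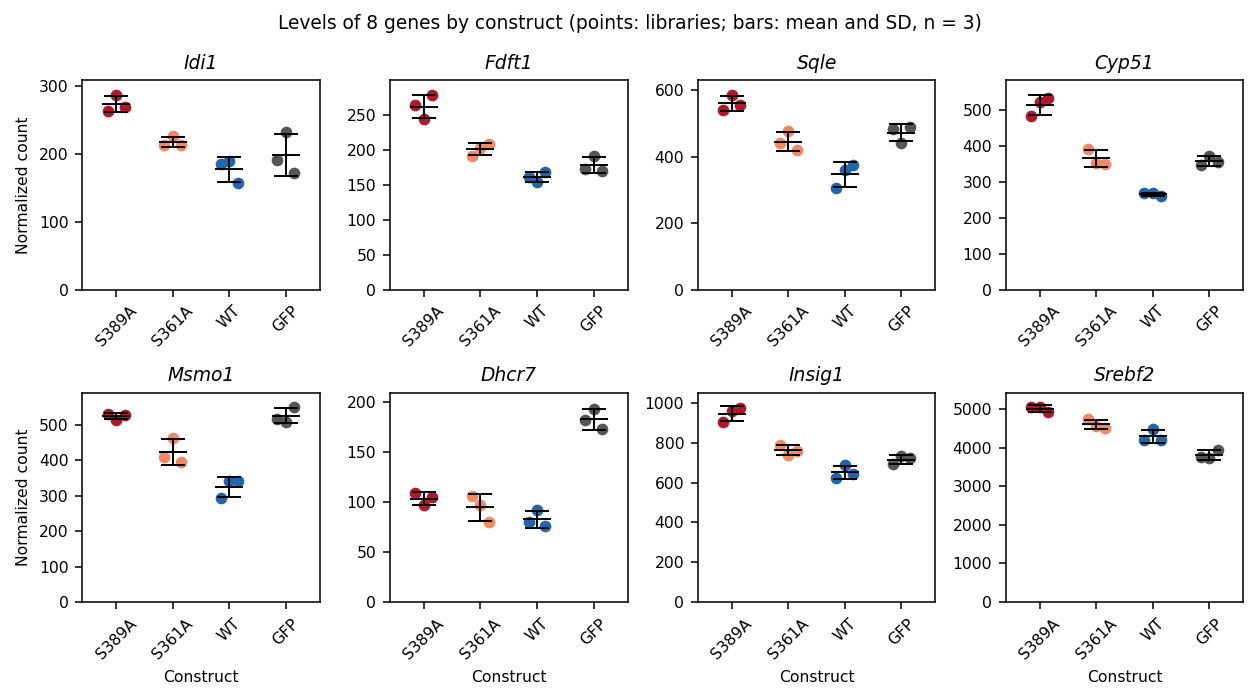
Points are normalized counts of single libraries, by construct, for 8 genes, on axes that start at 0, with bars for the mean and SD of 3 libraries. Cyp51, Sqle, Fdft1 and Insig1 are highest in IRX3_S389A and lowest in IRX3_WT, Dhcr7 is lower with all 3 IRX3 constructs than with GFP, and Srebf2 is lowest in GFP, a position that the scaling of the libraries changes in IRX3_WT.

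The enzymes after Msmo1 in the removal of the methyl groups are Nsdhl, a decarboxylating dehydrogenase, and Hsd17b7, the reductase of the resulting ketone. Hsd17b7 had 205, 185 and 248 normalized counts in the IRX3_S389A libraries, 158, 203 and 238 in the IRX3_S361A libraries, 147, 161 and 145 in the IRX3_WT libraries and 216, 201 and 240.4 in the GFP libraries. Its IRX3_WT libraries were below all GFP and IRX3_S389A libraries, while the 3 IRX3_S361A libraries spread across the others. Hsd17b7 fell in IRX3_WT against GFP by 0.53 ± 0.13 (adjusted p = 0.000952, limma). It rose against IRX3_WT by 0.48 ± 0.13 in IRX3_S389A (adjusted p = 0.00778, limma) and by 0.38 ± 0.13 in IRX3_S361A (adjusted p = 0.0367). The rise in IRX3_S389A was lost without IRX3_S389A replicate 3 (adjusted p = 0.0723, limma). The rise in IRX3_S361A held in 8 of the 12 fits that left out 1 library and was lost without IRX3_S361A replicate 2 or 3 or IRX3_WT replicate 1 or 3 (highest adjusted p = 0.28, limma). Nsdhl averaged 190.3 ± 17.8 normalized counts in IRX3_WT and 231 ± 12.5 in GFP libraries (SD, n = 3 each) and fell by 0.28 ± 0.11 (adjusted p = 0.0319, limma), a call lost without IRX3_WT replicate 1 or 3 or GFP replicate 1 or 3 (highest adjusted p = 0.115) and not made by DESeq2 (adjusted p = 0.054).

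The last steps rearrange and reduce the sterol ring. Ebp, the sterol isomerase, had 368, 424 and 380.1 normalized counts in the IRX3_S389A libraries, 432, 442 and 453 in the IRX3_S361A libraries, 360.3, 344 and 328 in the IRX3_WT libraries and 404, 389.5 and 402 in the GFP libraries. Its highest group was IRX3_S361A, above every other library. Ebp rose in IRX3_S361A against IRX3_WT by 0.36 ± 0.08 (adjusted p = 0.00106, limma) and fell in IRX3_WT against GFP by 0.21 ± 0.08 (adjusted p = 0.0317), the fall being lost without IRX3_WT replicate 2 or 3 or GFP replicate 1 or 3 (highest adjusted p = 0.115) and not made by DESeq2 (adjusted p = 0.0532). Sc5d, the sterol desaturase, averaged 232 ± 12.1 normalized counts in IRX3_S389A and 169.7 ± 17.2 in IRX3_WT libraries (SD, n = 3 each) and rose by 0.45 ± 0.11 (adjusted p = 0.00483, limma).

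Dhcr7 (chr7:143823145-143848410, plus strand), the reductase that turns the last sterol intermediate of its branch into cholesterol, moved in another way. It had 109.5, 96.6 and 105 normalized counts in the IRX3_S389A libraries, 106, 97.4 and 80.4 in the IRX3_S361A libraries, 79.7, 92.4 and 76.2 in the IRX3_WT libraries and 182, 193 and 173 in the GFP libraries. All 9 libraries with an IRX3 construct were below the 3 GFP libraries. Dhcr7 fell against GFP by 1.14 ± 0.14 in IRX3_WT (adjusted p = 2.76e-08, limma), by 0.95 ± 0.14 in IRX3_S361A (adjusted p = 1.97e-06) and by 0.81 ± 0.14 in IRX3_S389A (adjusted p = 1.73e-05). These comparisons share the GFP libraries. Against IRX3_WT, the differences of 0.19 ± 0.14 in IRX3_S361A (adjusted p = 0.444, limma) and 0.32 ± 0.14 in IRX3_S389A (adjusted p = 0.135) missed the threshold.

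The other late enzymes act at the lanosterol stage. Lss, lanosterol synthase, averaged 146 ± 14.5 normalized counts in IRX3_WT and 202 ± 22 in GFP libraries (SD, n = 3 each) and fell by 0.47 ± 0.12 (adjusted p = 0.00162, limma). Tm7sf2 and Lbr encode sterol reductases that act on the same double bond, and Lbr is also the lamin B receptor of the nuclear envelope. Tm7sf2 averaged 69.0 ± 11.7 normalized counts in IRX3_S389A, 68.6 ± 13.9 in IRX3_S361A, 45.8 ± 11 in IRX3_WT and 65.2 ± 7.16 in GFP libraries (SD, n = 3 each). Its fall of 0.52 ± 0.21 in IRX3_WT against GFP (adjusted p = 0.0406, limma) and its rises of 0.59 ± 0.21 in IRX3_S389A (adjusted p = 0.0443) and 0.58 ± 0.21 in IRX3_S361A (adjusted p = 0.0486) against IRX3_WT were all lost without IRX3_WT replicate 3 (adjusted p = 0.248, 0.262 and 0.264). The fall held in 7 of the 12 fits that left out 1 library, the rise in IRX3_S389A in 5 and that in IRX3_S361A in 3, and DESeq2 called none of them (adjusted p = 0.0865, 0.0813 and 0.0843). Vps51 covers 12.1% of the Tm7sf2 exon bases on the same strand. Lbr was lowest in IRX3_S389A, at 371 ± 27.3 normalized counts against 462 ± 43 in GFP libraries (SD, n = 3 each), a fall of 0.32 ± 0.08 (adjusted p = 0.00266, limma). Lbr was the only one of the 12 late enzymes whose IRX3_WT mean was not the lowest of the 4.

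Among the regulators, Insig1 (chr5:28071363-28078662, plus strand) encodes the sterol-dependent anchor of SCAP and is itself a classical SREBP target. It had 906, 958 and 975 normalized counts in the IRX3_S389A libraries, 786, 737 and 759.9 in the IRX3_S361A libraries, 623, 688 and 644 in the IRX3_WT libraries and 691, 731 and 724 in the GFP libraries. The IRX3_S389A libraries were above all others and the IRX3_WT libraries below all others. Insig1 rose in IRX3_S389A by 0.54 ± 0.06 against IRX3_WT (adjusted p = 3.55e-08, limma), by 0.40 ± 0.06 against GFP (adjusted p = 1.36e-06) and by 0.31 ± 0.06 against IRX3_S361A (adjusted p = 0.000422). Its rise of 0.22 ± 0.06 in IRX3_S361A against IRX3_WT (adjusted p = 0.00891, limma) was lost without IRX3_WT replicate 1 (adjusted p = 0.0614) and without IRX3_S361A replicate 1. The difference between IRX3_WT and GFP was -0.13 ± 0.06 (adjusted p = 0.0796, limma; 0.0479 by edgeR), and with libraries scaled to equal totals it was a fall, at -0.31 (adjusted p = 6.32e-05).

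Srebf2 (chr15:82147181-82205379, plus strand) encodes SREBP-2, the form that mainly drives cholesterol genes, and SREBP-2 also acts on its own gene. It had 5052, 5055 and 4914 normalized counts in the IRX3_S389A libraries, 4726, 4545 and 4516 in the IRX3_S361A libraries, 4187, 4470.3 and 4206 in the IRX3_WT libraries and 3742, 3723 and 3942 in the GFP libraries. On the deposited scaling the 4 groups did not overlap, with IRX3_S389A highest, then IRX3_S361A, IRX3_WT and GFP, though IRX3_WT and GFP were level with equal library totals. Srebf2 rose in IRX3_S389A by 0.40 ± 0.04 against GFP (adjusted p = 1.07e-10, limma) and by 0.22 ± 0.04 against IRX3_WT (adjusted p = 6.34e-05), and in IRX3_S361A by 0.27 ± 0.04 against GFP (adjusted p = 7.14e-07). Its rise of 0.17 ± 0.04 in IRX3_WT against GFP (adjusted p = 0.000468, limma) turned to -0.0036 (adjusted p = 0.946) with equal totals. The difference of 0.12 ± 0.04 between IRX3_S389A and IRX3_S361A (adjusted p = 0.0372, limma) held in 8 of the 12 fits that left out 1 library. It was lost without IRX3_S389A replicate 1 or 2 or IRX3_S361A replicate 2 or 3 (highest adjusted p = 0.149, limma) and with equal totals, at 0.07 (adjusted p = 0.27). Per kilobase of exon in the GFP libraries, Srebf2 had 529 normalized counts, Insig1 231, Srebf1 224 and Ebp 173, while Lss had 18.8, Tm7sf2 14.8 and Fdps 1.95. Exons of all annotated transcripts of a gene were merged for this, so the measure depends on the annotation. For Lss they came to 10787 bases, where its longest coding transcript has 4667.

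Scap, the sterol-sensing escort, had 1136, 1112 and 1085 normalized counts in the IRX3_S389A libraries, 1205, 1093 and 1072 in the IRX3_S361A libraries, 1221, 1211 and 1140.2 in the IRX3_WT libraries and 1031, 893 and 1006 in the GFP libraries. Every library with an IRX3 construct was above the 3 GFP libraries. Scap rose against GFP by 0.19 ± 0.06 in IRX3_S389A (adjusted p = 0.0107, limma), by 0.20 ± 0.06 in IRX3_S361A (adjusted p = 0.00833) and by 0.29 ± 0.06 in IRX3_WT (adjusted p = 0.000122), but with libraries scaled to equal totals none of these passed, at 0.02, 0.09 and 0.11. Without GFP replicate 2 the calls in IRX3_S389A (adjusted p = 0.133, limma) and IRX3_S361A (adjusted p = 0.114) were also lost, the second also without IRX3_S361A replicate 1. The uncharacterised gene 5830462I19Rik covers 13.2% of the Scap exon bases on the opposite strand.

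Srebf1 encodes SREBP-1a and SREBP-1c, which lean towards fatty acid genes and which a count over the whole gene cannot separate. It had 1372, 1349 and 1275 normalized counts in the IRX3_S389A libraries, 1406, 1393 and 1380.1 in the IRX3_S361A libraries, 1214, 1333 and 1377 in the IRX3_WT libraries and 1275, 1247 and 1272 in the GFP libraries. All 3 IRX3_S361A libraries were above the others, and those of IRX3_WT overlapped GFP. Its rise of 0.14 ± 0.05 in IRX3_S361A against GFP (adjusted p = 0.0451, limma) held in 5 of the 12 fits that left out 1 library (highest adjusted p = 0.126, without GFP replicate 2). It was not made by edgeR (adjusted p = 0.0662) or DESeq2 (adjusted p = 0.0548), nor with equal totals, at 0.03 (adjusted p = 0.74, limma). In IRX3_WT against GFP the difference was 0.05 ± 0.05 (adjusted p = 0.521, limma), and with equal totals -0.13 (adjusted p = 0.038).

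Stard4, a carrier that moves cholesterol between membranes and a known SREBP-2 target, had 378, 388 and 451 normalized counts in the IRX3_S389A libraries, 362, 368 and 410.1 in the IRX3_S361A libraries, 332, 331 and 329 in the IRX3_WT libraries and 363, 326 and 377 in the GFP libraries. Its IRX3_WT libraries spanned 329 to 332, below every IRX3_S389A and IRX3_S361A library. Stard4 rose in IRX3_S389A against IRX3_WT by 0.29 ± 0.09 (adjusted p = 0.0184, limma), a call lost without IRX3_S389A replicate 3 (adjusted p = 0.142) or IRX3_WT replicate 3.

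The other 3 regulators passed no comparison on the deposited scaling. Insig2, the second SCAP anchor, had 331, 393 and 392 normalized counts in the IRX3_S389A libraries, 362, 351 and 418 in the IRX3_S361A libraries, 397, 325 and 362 in the IRX3_WT libraries and 381, 364 and 386 in the GFP libraries. Mbtps1, the site-1 protease, had 1369, 1426 and 1423 normalized counts in the IRX3_S389A libraries, 1482, 1413 and 1503 in the IRX3_S361A libraries, 1491, 1492 and 1485 in the IRX3_WT libraries and 1397, 1394 and 1448 in the GFP libraries. Mbtps2, the site-2 protease, had 922, 854 and 1004 normalized counts in the IRX3_S389A libraries, 921, 955 and 828 in the IRX3_S361A libraries, 1029.8, 1006 and 913 in the IRX3_WT libraries and 883, 874 and 943 in the GFP libraries, and 28.4% of its exon bases lie in Yy2, which was at 0. The log2 differences of these 3 genes ran between -0.13 and 0.13 over the 6 comparisons. With equal totals Insig2 was called lower in IRX3_WT against GFP (adjusted p = 0.0247, limma) and Mbtps1 in IRX3_S389A against GFP (adjusted p = 0.00258).

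Set out by comparison, IRX3_WT against GFP called 13 of the 28 genes, where 39.6% of all genes tested were called. Of the 28, 11 were lower, where 18.6% of all genes were, and 2 were higher, where 21.0% were. The 12 late enzymes held 9 of the 11 falls and the 8 early enzymes 2, and both rises, Srebf2 and Scap, were regulators that no longer passed with equal library totals. The median log2 difference of the 28 genes was -0.22, of the 12 late enzymes -0.44 and of all genes tested -0.01. The count of falls was 7 without IRX3_WT replicate 1 and also 7 without GFP replicate 1. With libraries scaled to equal totals the median of all genes moved to -0.18, and 22 of the 28 genes were called lower and 0 higher; their median was then -0.40.

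IRX3_S389A against IRX3_WT called 12 of the 28, all higher, where 15.3% of all genes were called and 8.21% were higher. IRX3_S361A against IRX3_WT called 9, all higher, where 15.5% were called and 6.43% were higher. Both comparisons share the IRX3_WT libraries, and IRX3_WT against GFP shares them too. In neither was any of the 28 called lower by limma, edgeR or DESeq2. Of all genes, limma called 7.08% lower in IRX3_S389A and 9.07% in IRX3_S361A, at an adjusted p under 0.05. None of the 28 was lower at an unadjusted p under 0.05 either, and the share of all genes at that threshold was not taken. The median log2 difference of the 28 was 0.30 in IRX3_S389A and 0.21 in IRX3_S361A, and that of the 12 late enzymes 0.47 and 0.34, with medians of all genes of 0.00 and 0.01. Without IRX3_WT replicate 1, 5 of the 28 were called in IRX3_S361A against IRX3_WT, and with equal totals 13 were higher and 0 lower.

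**Figure D3:**
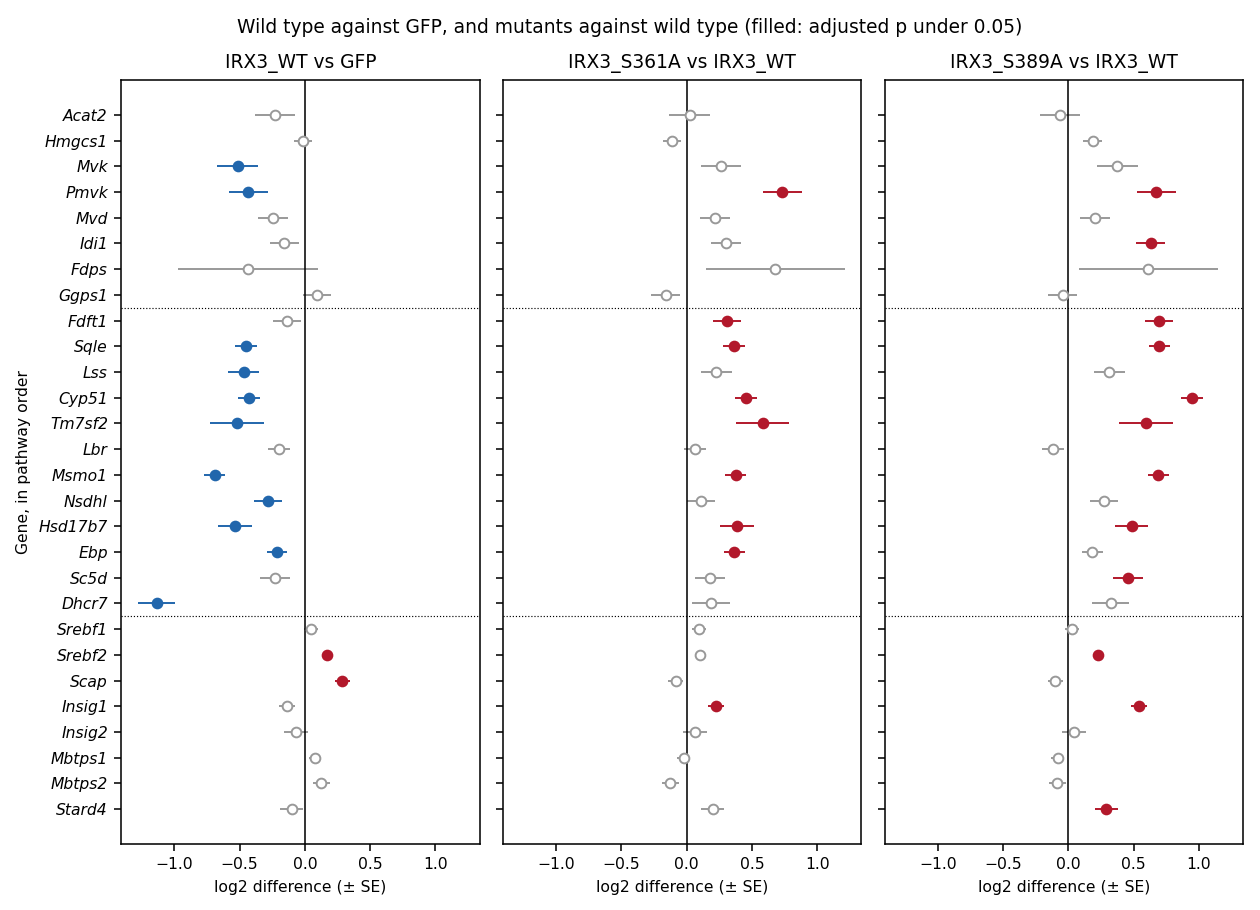
Each point is the log2 difference of 1 gene with its SE, in pathway order, for the 3 comparisons that involve IRX3_WT, on the scaling as deposited; filled points passed limma at an adjusted p under 0.05, red if higher and blue if lower. IRX3_WT against GFP shows 11 filled blue points among the enzymes and 2 filled red ones, Srebf2 and Scap, which do not pass with equal library totals, while both mutants against IRX3_WT show filled red points only, 9 for IRX3_S361A and 12 for IRX3_S389A.

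Against GFP, IRX3_S389A called 9 of the 28, where 35.0% of all genes were called, with 7 higher, against 18.8% of all genes, and 2 lower, against 16.2%. The 7 were Idi1, Fdft1, Sqle, Cyp51, Srebf2, Scap and Insig1, of which Sqle and Scap no longer passed with equal totals, and the 2 were Lbr and Dhcr7. IRX3_S361A against GFP called 5, where 25.9% were called, with 3 higher, against 14.9%, and 2 lower, against 10.9%. The higher ones were Srebf1, Srebf2 and Scap, and the lower ones Msmo1 and Dhcr7. With equal totals 1 of the 3 rises was left, Srebf2, beside 6 falls, and 1 rise was called without IRX3_S361A replicate 1 and also without GFP replicate 2. For IRX3_S389A equal totals gave 5 rises and 6 falls. The median log2 difference of the 28 was 0.06 for IRX3_S389A and -0.00 for IRX3_S361A, against -0.01 and 0.00 over all genes.

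IRX3_S389A against IRX3_S361A called 7 of the 28, where 10.2% of all genes were called. All 7 were higher, against 7.00% of all genes, and 0 were lower by limma, against 3.16%. The 7 were Hmgcs1, Fdft1, Sqle, Cyp51, Msmo1, Srebf2 and Insig1. At an unadjusted p under 0.05, 2 of the 28 were lower, and edgeR and DESeq2 called 0 lower at an adjusted p under 0.05. With equal totals 6 were higher and 1, Ebp, lower. The median log2 difference was 0.10 over the 28 and -0.00 over all genes. The differences of the 21 genes that missed the threshold ran between -0.18 for Ebp and 0.33 for Idi1.

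**Figure D4:**
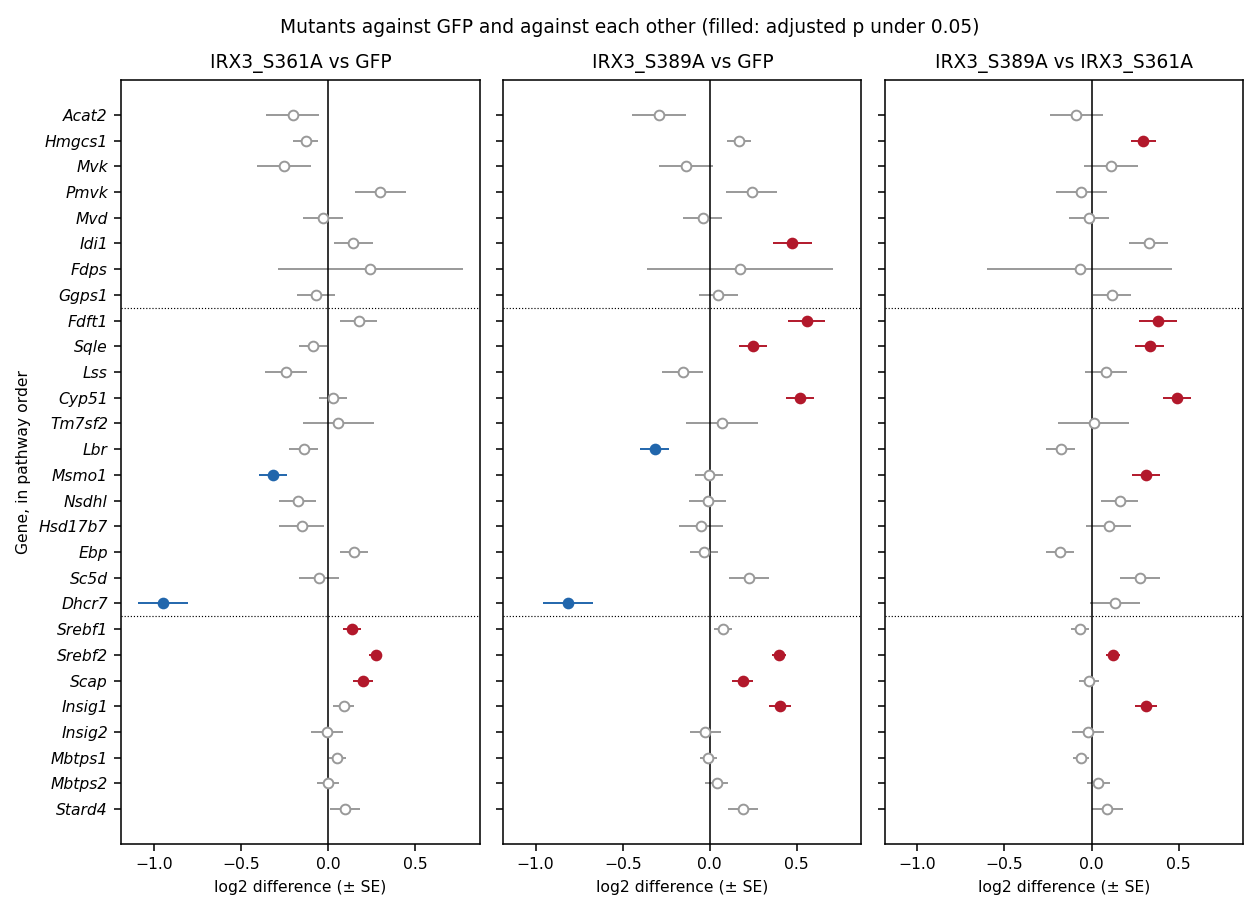
Each point is the log2 difference of 1 gene with its SE, in pathway order, for both mutants against GFP and for IRX3_S389A against IRX3_S361A, on the scaling as deposited; filled points passed limma at an adjusted p under 0.05. Dhcr7 is the point farthest to the left in both comparisons with GFP, and 7 filled red points separate IRX3_S389A from IRX3_S361A.

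Genes that share regulators or substrates with the route were counted from 6 further lists. Of 16 fatty acid genes known as SREBP targets, IRX3_WT against GFP called 9 lower and 1 higher, where 18.6% of all genes were lower and 21.0% higher, with a median log2 difference of -0.29 against -0.01 over all genes. IRX3_S389A against IRX3_WT called 6 of the 16 higher, where 8.21% of all genes were, with a median of 0.19. IRX3_S361A against IRX3_WT called 5 higher, where 6.43% were, with a median of 0.15. Neither had one called lower by limma, edgeR or DESeq2, and at an unadjusted p under 0.05 limma had 0 lower in IRX3_S389A and 1 in IRX3_S361A. Scd2, a stearoyl-CoA desaturase, averaged 197 ± 20.2 normalized counts in IRX3_S389A, 172 ± 14.5 in IRX3_S361A, 99.7 ± 19.1 in IRX3_WT and 300.2 ± 14.4 in GFP libraries (SD, n = 3 each). It fell in IRX3_WT against GFP by 1.60 ± 0.13 (adjusted p = 3.01e-13, limma) and rose against IRX3_WT by 0.99 ± 0.13 in IRX3_S389A (adjusted p = 3.51e-07) and by 0.80 ± 0.13 in IRX3_S361A (adjusted p = 1.27e-05). Fasn, fatty acid synthase, fell in IRX3_WT against GFP by 0.60 ± 0.05 (adjusted p = 4.5e-12, limma) and Fads1, a fatty acid desaturase, by 0.51 ± 0.07 (adjusted p = 7.6e-08). All 3 genes also fell against GFP in both mutants, Scd2 by 0.61 ± 0.13 in IRX3_S389A (adjusted p = 0.000176, limma) and by 0.80 ± 0.13 in IRX3_S361A (adjusted p = 4.27e-06). Between IRX3_S389A and IRX3_S361A limma called 0 of the 16 in either direction, with 1 higher and 1 lower at an unadjusted p under 0.05; edgeR called 1 lower and DESeq2 0.

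Of 10 tested genes of the LXR and efflux list, IRX3_WT against GFP called 5 higher and 3 lower, where 21.0% of all genes were higher and 18.6% lower, with a median log2 difference of 0.11. With equal totals 2 were higher and 4 lower, with a median of -0.07. Abca1, the cholesterol exporter that LXRs induce, averaged 4087 ± 94.5 normalized counts in IRX3_S389A, 4165 ± 115 in IRX3_S361A, 3726 ± 177 in IRX3_WT and 2660.2 ± 161 in GFP libraries (SD, n = 3 each). It rose against GFP by 0.62 ± 0.04 in IRX3_S389A (adjusted p = 2.06e-14, limma), by 0.65 ± 0.04 in IRX3_S361A (adjusted p = 1.82e-14) and by 0.49 ± 0.04 in IRX3_WT (adjusted p = 1.05e-11). Apoe, the apolipoprotein that takes up exported lipid, rose in IRX3_WT against GFP by 0.48 ± 0.03 (adjusted p = 9.31e-15, limma), and Arl4c, a small GTPase gene known as an LXR target, fell by 1.53 ± 0.06 (adjusted p = 1.03e-21). With equal totals the rises of Abca1 and Apoe in IRX3_WT were 0.31 and 0.30 and still passed.

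The list of sterol uptake, esterification and trafficking, 11 genes tested, had 2 higher and 5 lower in IRX3_WT against GFP, beside 21.0% and 18.6% of all genes, with a median log2 difference of -0.10. With equal totals 1 was higher and 8 lower. In IRX3_S389A against IRX3_WT 4 were higher and 1 lower, beside 8.21% and 7.08% of all genes, with a median of 0.08. Gramd1a, a carrier of cholesterol out of the plasma membrane, rose in IRX3_WT against GFP by 0.49 ± 0.04 (adjusted p = 4.43e-12, limma). Lipa, the lysosomal lipase that frees cholesterol from its esters, fell in IRX3_WT against GFP by 0.32 ± 0.04 (adjusted p = 1.88e-07, limma) and rose in IRX3_S389A against IRX3_WT by 0.34 ± 0.04 (adjusted p = 4.7e-07). Gramd1b, a relative of Gramd1a, was higher in IRX3_S389A than in IRX3_S361A by 0.34 ± 0.05 (adjusted p = 2.85e-06, limma). It averaged 2304 ± 43.7 normalized counts in IRX3_S389A, 1816 ± 88.3 in IRX3_S361A, 2197 ± 17.6 in IRX3_WT and 1813 ± 120 in GFP libraries (SD, n = 3 each). Its IRX3_S361A mean was thus near that of GFP, and its IRX3_S389A mean nearer that of IRX3_WT.

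Of 10 genes of sterol-regulated degradation and SREBP anchoring, IRX3_WT against GFP called 3 higher and 2 lower, beside 21.0% and 18.6% of all genes, with a median of -0.00. With equal totals 2 were higher and 5 lower, with a median of -0.18. The ubiquitin ligase gene Rnf139 rose by 0.46 ± 0.06 (adjusted p = 1.71e-07, limma) and Rnf145 by 0.28 ± 0.04 (adjusted p = 2.16e-06). Of 12 genes of the isoprenoid branch, which leads to protein prenylation and dolichol, 2 were higher and 1 lower in IRX3_WT against GFP, beside 21.0% and 18.6% of all genes, with a median of -0.04. With equal totals 0 were higher by limma and 5 lower, with a median of -0.22, and edgeR called 1 higher and 1 lower. In IRX3_S389A against IRX3_WT limma called 0 of the 12, with 2 lower at an unadjusted p under 0.05, edgeR called 1 lower and DESeq2 0. Pggt1b had the smallest p of this list in limma's test among the 4 groups (adjusted p = 0.00155). It averaged 1362 ± 69.2 normalized counts in IRX3_S389A, 1324 ± 15.5 in IRX3_S361A, 1514 ± 103 in IRX3_WT and 1268 ± 72.2 in GFP libraries (SD, n = 3 each). Dolk, the dolichol kinase, was the gene called lower in IRX3_WT against GFP, by 0.37 ± 0.13 (adjusted p = 0.0186, limma), lost without IRX3_WT replicate 2 (adjusted p = 0.115). Of the 4 oxysterol enzymes only Ch25h and Cyp27a1 were tested. Ch25h, which makes the oxysterol that strengthens the hold of INSIG, fell against IRX3_WT by 0.22 ± 0.04 in IRX3_S389A (adjusted p = 0.000108, limma) and by 0.14 ± 0.04 in IRX3_S361A (adjusted p = 0.0119), the second being lost without IRX3_S361A replicate 1 (adjusted p = 0.0996) and with equal totals (-0.08).

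**Figure D5:**
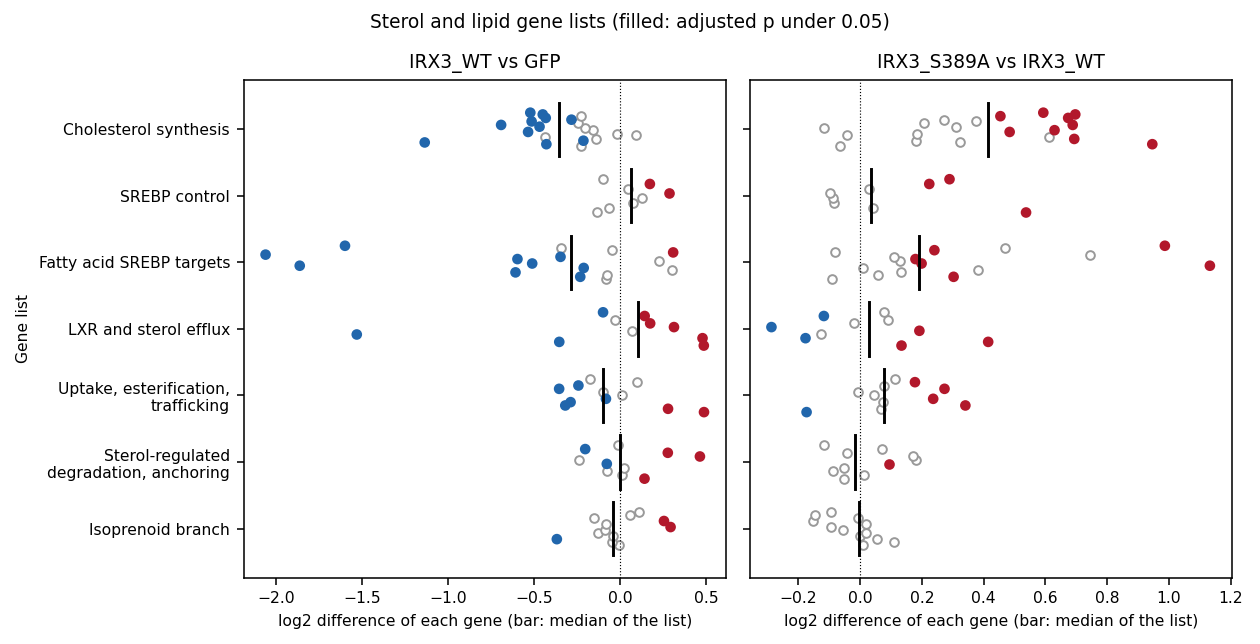
Each point is the log2 difference of 1 gene, in rows by gene list, for IRX3_WT against GFP and IRX3_S389A against IRX3_WT, on the scaling as deposited; the panels differ in their x axes, bars are medians and filled points passed limma at an adjusted p under 0.05. The cholesterol synthesis and fatty acid rows lie mostly left of 0 in IRX3_WT against GFP and right of 0 in IRX3_S389A against IRX3_WT, and the isoprenoid branch row is centred near 0 in both.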

How the data were processed

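RNA-seq libraries of 12 BMDM samples, 3 per construct, were grouped by their sample titles. The submitters' processing notes name mm10 as the build and Trimmomatic, StringTie 1.3.5 and HISAT2 2.1.0 as tools. How reads were counted, with or without strand, and which tool gave size factors is not given in the sources used here. The deposited signal, a normalized count per gene, comes from the authors' normalization, which divided each library's counts by a single factor. On testing, 100% of the values were whole multiples of 1 step (tolerance 1e-06), with 0.890 to 1.14 units per read. In 3 libraries the step was within 1% of 1, so whole reads are claimed for the other 9. These 3 were IRX3_S389A replicate 2 and IRX3_S361A replicates 2 and 3.

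Differences were tested with limma 3.58.1 (R 4.3.3, trend and robust) on log2(normalized count + 1), which understates changes of low genes, with all 12 libraries in 1 fit (8 residual degrees of freedom), two-sided, adjusted by Benjamini-Hochberg over 13369 genes. On the recovered reads of all 12 libraries, edgeR 4.0.16 (quasi-likelihood, 13355 genes) called 5307 genes in IRX3_WT vs GFP, 2067 in IRX3_S361A vs IRX3_WT, 2018 in IRX3_S389A vs IRX3_WT, 3513 in IRX3_S361A vs GFP, 4775 in IRX3_S389A vs GFP and 1374 in IRX3_S389A vs IRX3_S361A. DESeq2 1.42.0 was a further alternative. The tests were also run on simulated data with changes of at least 1.5 times in 1 construct, so smaller differences were not covered. "Equal totals" means libraries rescaled to the same sum. Other alternatives were pseudocounts of 0.5 and 5, no filter, a filter of 50, TMM scaling, fits of only the groups compared, a replicate block and leaving out each library. The counting floor is 3 reads, 2.67 to 3.41 normalized counts, and covers counting error only.

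The 28 genes and all lists were chosen with earlier results of these data known. Values per library are given for the 12 members with the smallest p among the 4 groups and for the regulators, and Hmgcs1 was added after its values were seen. Of each other list, up to 3 genes with the smallest p could be named. Positions, exon overlaps and exon lengths are from GENCODE M21, to which 99.5% of the gene IDs matched. A near-identical copy is a stretch of another annotated transcript with at least 95% identity over at least 150 bases. Both strands were searched, so transcripts of genes that overlap a member at its own place are included.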

Additional observations from a re-analysis of the deposited data

How the results depend on the processing

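Among the 168 differences (28 genes in 6 comparisons), those that changed sign and were called before or after the change were Srebf1 and Srebf2 in IRX3_WT vs GFP, both with equal totals: -0.1302 (adjusted p = 0.038, limma) for Srebf1 and -0.003632 (adjusted p = 0.946) for Srebf2. Of the 55 calls, 36 held in all fits that left out 1 library, edgeR also made 52 and DESeq2 48, and 28 held under every alternative. Apart from fits that left out 1 library, the following counts of the 28 genes moved by over 1.5 times. With equal totals IRX3_WT vs GFP gave 22. By edgeR on the 9 libraries with claimed whole reads, IRX3_S361A vs IRX3_WT gave 3 and IRX3_S389A vs IRX3_S361A gave 1. Over all genes that edgeR fit, with fewer libraries, called 1372 in IRX3_S361A vs IRX3_WT, 2242 in IRX3_S361A vs GFP and 437 in IRX3_S389A vs IRX3_S361A. In that edgeR fit IRX3_S361A kept replicate 1 alone, and IRX3_S389A kept replicates 1 and 3. With IRX3_S361A unreplicated, the counts of the 9-library fit cannot show whether calls in its comparisons depend on how reads were recovered. Over all genes equal totals gave 1395 higher and 5519 lower in IRX3_WT vs GFP, where the deposited scaling gave 2805 and 2483. It put the median of all genes at -0.11 in IRX3_S361A vs GFP, -0.17 in IRX3_S389A vs GFP and 0.07 in IRX3_S361A vs IRX3_WT. Leaving out 1 library gave 9 to 13 of the 28 in IRX3_WT vs GFP, 5 to 10 in IRX3_S361A vs IRX3_WT, 10 to 16 in IRX3_S389A vs IRX3_WT, 3 to 5 in IRX3_S361A vs GFP, 7 to 10 in IRX3_S389A vs GFP and 5 to 8 in IRX3_S389A vs IRX3_S361A. For the last of these, all genes called ran from 904 (without IRX3_S361A replicate 3) to 1415. The cause was not tested. Replicate numbers did not pair the libraries (18 correlations of same-numbered libraries between -0.041 and 0.030), and with a replicate block 13 of the 28 were called in IRX3_WT vs GFP, 9 in IRX3_S361A and 12 in IRX3_S389A vs IRX3_WT, 4 in IRX3_S361A and 9 in IRX3_S389A vs GFP, and 8 between the mutants. Among the 28 genes, Fdps lies near the counting floor, so its few counted reads limit what its values can show. Its near-copy Gm3571 had more, 12.5 to 41.3 normalized counts per library. How reads were shared between Fdps and its copies was not tested.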
